A study of Mus musculus with 12 samples.

Results

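The response of Smarcd1 knockout cells to added interferon (IFN) was read from 6 of the 12 libraries of an RNA sequencing study of MC38, a mouse colorectal carcinoma line grown in culture. These were the 3 libraries titled as knockout cells with IFN and the 3 titled as knockout cells alone, and the members of the response were all 16676 genes with enough counts to be tested, of 51826 in the deposited table. The protein made from Smarcd1 belongs to SWI/SNF (BAF) complexes, which remodel chromatin, and the series title names PD-L1 expression and cell proliferation as its subjects.

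The groups were knockout cells with IFN, untreated knockout cells, wild-type cells with IFN and untreated wild-type cells, with 3 libraries in each. All 12 libraries were fitted together, so the wild-type libraries also enter the spread behind the p values of the knockout contrast. All were MC38 cells, and the knockout groups carried a guide RNA-directed knockout of Smarcd1. Which interferon was added, its dose, its duration and the number of knockout clones are details that the sources used here do not give. Groups follow the sample titles and the short sample codes. In 6 samples the genotype and treatment fields instead exchange untreated knockout cells with IFN-treated wild-type cells, so the untreated knockout libraries used here would be treated wild-type libraries by those fields. Nothing in the labels says that the 3 libraries of a group came from separate cultures, so p values measure only the spread between these samples.

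Interferons act through cell-surface receptors whose Janus kinases phosphorylate STAT transcription factors. IFN-gamma acts mainly through GAS elements and induces the transcription factor IRF1, whereas type I interferons also lead to a complex with STAT2 and IRF9 that binds interferon-stimulated response elements, which IRF family members bind too. In tumour cells these routes are known for raising antigen presentation, PD-L1 and chemokines that attract T cells.

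Both kinds of element can be read in the promoters of genes that rose in the knockout cells, and 6 are shown: 4 with both side by side, Gbp7 with several matches, and Irf1, an early target of IFN-gamma, with a GAS match alone. Each is the stretch from 120 to 21 bases before the gene's RefSeq start on assembly GRCm38.p6, written 5′ to 3′ on the gene's strand, with matches to the GAS motif TTCNNNGAA or to the IRF-type motif (GAAA, any 2 bases, GAAA) in capitals (for Gbp7 the IRF-type match lies on the opposite strand).
Tgtp1, chr11:48992267-48992366, minus strand: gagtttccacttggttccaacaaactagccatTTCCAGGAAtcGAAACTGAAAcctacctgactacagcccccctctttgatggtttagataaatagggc
Tgtp2, chr11:49064233-49064332, minus strand: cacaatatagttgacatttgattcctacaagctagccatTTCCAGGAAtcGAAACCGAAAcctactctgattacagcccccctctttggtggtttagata
Igtp, chr11:58199436-58199535, plus strand: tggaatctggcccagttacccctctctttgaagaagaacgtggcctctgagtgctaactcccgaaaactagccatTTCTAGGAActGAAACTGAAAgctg
Irgm2, chr11:58214857-58214956, plus strand: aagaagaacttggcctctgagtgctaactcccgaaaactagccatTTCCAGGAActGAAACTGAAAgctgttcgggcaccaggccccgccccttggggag
Gbp7, chr3:142530216-142530315, plus strand: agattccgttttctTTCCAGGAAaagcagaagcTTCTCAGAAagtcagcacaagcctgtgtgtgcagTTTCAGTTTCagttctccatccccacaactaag
Irf1, chr11:53769894-53769993, plus strand: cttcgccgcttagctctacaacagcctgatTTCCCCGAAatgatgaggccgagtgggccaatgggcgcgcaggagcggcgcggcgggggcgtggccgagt

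In Tgtp1, Tgtp2, Igtp and Irgm2 the GAS match was followed after 2 bases by the IRF-type match. This run of 21 letters, searched for after these promoters had been seen, occurred on either strand in 5 of 32851 promoter entries of 300 bases (0.0152%). The fifth was Gm12185, which lies in the same stretch of chromosome 11 as Tgtp1 and Tgtp2 and shares exonic bases with Tgtp1. Tgtp1, Tgtp2, Igtp and Irgm2 are relatives of 1 GTPase family and were taken from genes that rose, so their rise is fixed by that choice. All 5 genes lie on chromosome 11, and Gm12185 rose with IFN as well. In the same entries the GAS motif alone occurred in 8.3% and the IRF-type motif alone in 3.44%, on either strand and with overlaps allowed. The RefSeq starts of Tgtp1 and Irgm2 lie 1926 and 15359 bases from the gene starts in GENCODE, and those of the other 4 printed genes within 6 bases. A match is a description of these letters and not a binding site. Matches also lay in promoters of genes that fell, such as Oas1c and Plk2 (IRF-type) and Slc7a11 (GAS). A promoter entry was matched for 63.9% of the tested genes, for 60.5% of those at least 2-fold higher and for 58.1% of those at least 2-fold lower, so a comparison of motif shares between these sets is void.

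The targeted gene and the state of the libraries were examined first. Smarcd1 (ENSMUSG00000023018, chromosome 15, 99702129 to 99713991, GRCm38) had 58.7, 60.2 and 60.6 CPM (counts scaled to library size) in the 3 treated knockout libraries, against 49.4, 50.04 and 54.9 CPM in the 3 untreated ones. The log2 fold change, treated over untreated, was 0.22 ± 0.13 (SE) and did not pass the test (edgeR, adjusted p = 0.314). In wild-type cells Smarcd1 averaged 103 ± 18.7 CPM with IFN and 90.9 ± 13.1 CPM without (SD, n = 3 each), and each of the 6 libraries titled wild type, at 81.8 to 123 CPM, lay above each of the 6 titled knockout. Cxcl9, a chemokine gene induced by IFN-gamma, had 0 counts in the 3 libraries titled untreated knockout and 2726 to 4262 counts in the 3 titled wild type with IFN, the groups that the other fields exchange. A guide-directed edit need not remove the transcript, and 12.7% of the exonic bases of Smarcd1 overlap other annotated genes. The treated knockout libraries held 37270418 to 44174663 counts and the untreated ones 39899026 to 45721356. On principal components of these 6 libraries, the first (48.7% of the variance) set treated (37.28 to 37.86) apart from untreated libraries (-47.5 to -31.39), and the second (15.9%) set untreated replicate 1 apart, at 39.47. Mitochondrial genes held 2.62% to 2.99% of counts in treated and 1.68% to 2.58% in untreated libraries, and their part in the results was not tested. Most of the listed markers of immune cells had too few counts to be tested. Among macrophage and dendritic markers 6 were tested, and 1 of them, Mrc1, was called higher with IFN. Of 14 macrophage and dendritic markers, Adgre1, Lyz1, Tyrobp and Laptm5 had 0 counts in all 6 libraries and the summed level was 46.4 to 48.5 TPM (counts scaled to length and library size) in treated and 52.2 to 59.9 TPM in untreated libraries, and 11 of 13 T and NK cell markers had 0 counts in all 6. Defining epithelial markers of a colorectal line were at or near 0 as well: Epcam had 0 counts in all 6 libraries and Krt8 had 2 to 6.

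IFN raised 913 genes (5.47% of those tested) and lowered 1214 (7.28%) in knockout cells, 12.8% in all (edgeR quasi-likelihood test, Benjamini-Hochberg adjusted p below 0.05). Counts of calls in the gene lists below stand beside these shares of 5.47% and 7.28%. The median size of the log2 fold change was 0.65 for genes that rose and 0.67 for genes that fell. At the upper end, 126 of the genes that rose and 87 of those that fell changed by at least 4-fold, and 54 and 12 by at least 16-fold. These are fitted values, which depend on a prior count for the 13 higher genes with 0 counts in all untreated libraries and the 9 lower genes with 0 counts in all treated ones. Changes of at least 2-fold were found for 301 higher (1.8%) and 346 lower genes (2.07%). The 301 higher genes made up 1.988%, 1.994% and 2.014% of all TPM in the treated libraries, against 0.592%, 0.5906% and 0.6051% in the untreated ones, a separation that the choice of these genes fixes. The 346 lower genes were of lower abundance and made up 0.1246%, 0.1238% and 0.1213% in treated and 0.3246%, 0.3% and 0.2907% in untreated libraries. Treated and untreated libraries did not overlap in 3148 genes that were higher (18.9%) and 3419 that were lower (20.5%), whether called or not. With treated replicate 1, 2 or 3 left out, 1362, 1360 or 1352 genes passed, over 1.5 times fewer than 2127. The median log2 fold change over all tested genes was -0.01. Since these are bulk libraries, fewer cells with a transcript and less transcript per cell cannot be told apart.

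**Figure D1:**
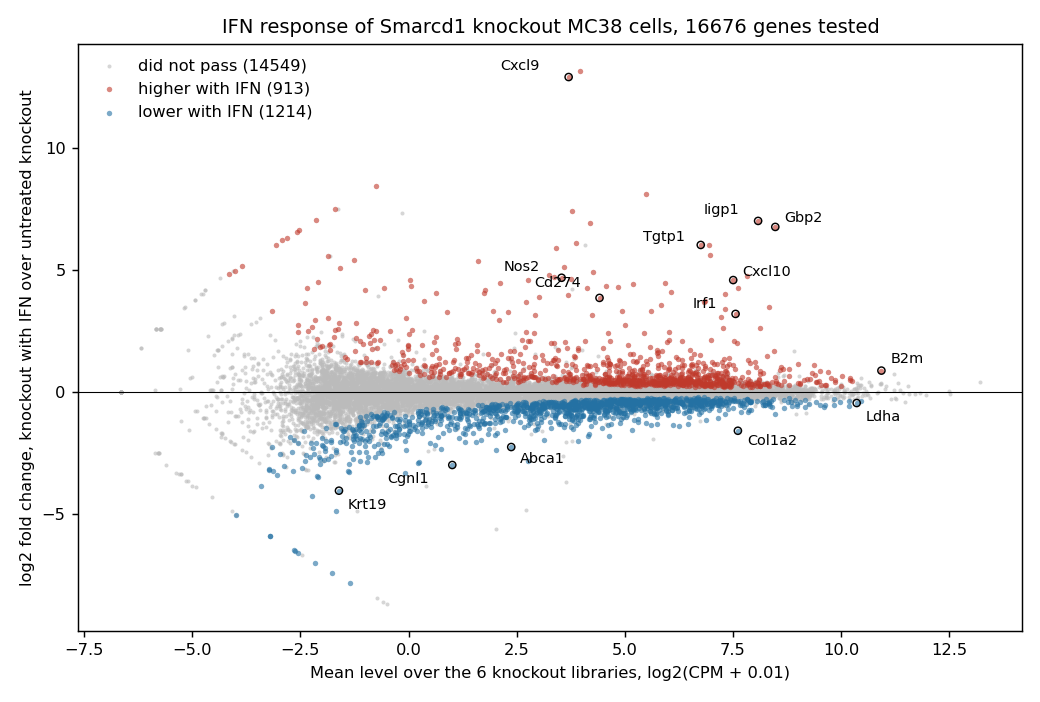
Each point is 1 of the 16676 tested genes, with its mean level over the 6 knockout libraries on the x axis (log2 of CPM plus 0.01) and its log2 fold change, knockout cells with IFN over untreated knockout cells, on the y axis. The 913 genes that rose (red) reach far larger changes than the 1214 that fell (blue), with Cxcl9, Iigp1, Gbp2 and Tgtp1 among the highest and small changes in the abundant genes B2m and Ldha.

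Within the signalling route itself, Stat2 and Stat3 rose while most receptor and kinase genes did not pass the test. Stat2, part of the type I complex, rose by 1.46 ± 0.06 (adjusted p = 1.01e-08), and Stat3, the main transducer of interleukin-6 family cytokines, by 1.56 ± 0.08 (adjusted p = 3.1e-08). Ifnar2, a type I receptor chain, rose by 0.58. The IFN-gamma receptor genes showed -0.09 ± 0.09 for Ifngr1 (adjusted p = 0.571) and 0.23 ± 0.09 for Ifngr2 (adjusted p = 0.135), and Jak1 -0.13 ± 0.09 (adjusted p = 0.414). Jak2, a kinase of the IFN-gamma receptor, had 36.6, 35.7 and 32.5 CPM in treated and 24.04, 29.6 and 27.9 CPM in untreated libraries. Although these do not overlap, Jak2 missed the threshold at 0.36 ± 0.12 (adjusted p = 0.0661), and it passed in the DESeq2 Wald test and in a fit to the 6 knockout libraries alone.

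Brakes on cytokine signalling split by direction, with 4 of 17 tested members higher and 3 lower, against 5.47% and 7.28% of all genes. The median log2 fold change over all genes was -0.01. The feedback inhibitor of JAK kinases Socs1 had 35.4, 34.7 and 33.9 CPM with IFN, against 15.8, 14.7 and 17.03 CPM without, a change of 1.13 ± 0.11 (adjusted p = 2.61e-05). Its relatives Socs3 and Socs5 rose by 1.13 and 0.41, and the phosphatase gene Ptpn2 by 0.54. Lower were the phosphatase gene Ptpn6 (-0.72), Socs2 (-0.64) and the STAT inhibitor gene Pias3 (-0.31), and leaving out untreated replicate 3 or treated replicate 2 or 3 left 1 of these 3 calls.

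Interferon regulatory factors, which carry the response to secondary targets, rose in 5 of 9 tested members and fell in 0, with a median of 0.53. Irf1 (chromosome 11, 53770014 to 53778374), whose promoter is shown above with its GAS match 90 bases before the start, had 339.7, 339.8 and 343 CPM in treated libraries, against 38.1, 34.1 and 38.7 CPM in untreated ones. The treated libraries were close to each other and lay above all untreated ones, and the change was 3.20 ± 0.08 (adjusted p = 5.22e-11). Irf8, best known from myeloid cells, had 24.4, 24.8 and 28.6 CPM with IFN, against 1.23, 0.940 and 0.934 CPM without, a change of 4.65 ± 0.14 (adjusted p = 3.42e-10). Irf7, the amplifier of type I interferon genes, rose by 1.27 ± 0.10 and Irf9 by 0.53 ± 0.07 (adjusted p = 1.74e-06 and 0.000415). The rise of Irf2 (0.76, adjusted p = 0.0265) was lost when any 1 of the 6 knockout libraries was left out. Irf3 and Irf5, which act downstream of nucleic acid and Toll-like receptor sensing, showed 0.06 and 0.23 and did not pass (adjusted p = 0.699 and 0.444).

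Nearly all genes for IFN-inducible GTPases, which act against intracellular pathogens, rose. All 10 tested guanylate-binding protein genes rose, with a median log2 fold change of 4.62, and the members summed to 1410, 1393 and 1414 TPM with IFN, against 34.4, 51.1 and 49.6 TPM without. Gbp2 (chromosome 3, 142620602 to 142638008) had 707, 724 and 691 CPM in treated libraries, against 5.13, 7.11 and 7.11 CPM in untreated ones. It changed by 6.77 ± 0.13, a 109-fold difference of group means (adjusted p = 5.22e-12). Gbp7, the promoter of which holds 2 GAS matches and an IRF-type match, had 442, 422 and 443 CPM with IFN and 12.8, 18.3 and 17.7 CPM without, a change of 4.74 ± 0.18 (adjusted p = 1.84e-09). Gbp4 rose by 6.05 ± 0.12, and the others between 3.15 (Gbp8) and 4.79 (Gbp10), apart from Gbp11, which had 40, 25 and 32 counts with IFN and 0, 0 and 2 without, too few for a fold to be given. Reads of these near-identical genes can be split between copies in counting, and 46.3% of the exonic bases of Gbp10 and 28.99% of those of Gbp6 overlap other genes.

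Among the immunity-related GTPases, 12 of 13 tested genes rose, with a median of 3.98 and summed levels of 2069, 2099 and 2051 TPM with IFN, against 129.5, 180.3 and 173.8 TPM without. Iigp1 (chromosome 18, 60376027 to 60392634), an effector that disrupts parasite vacuoles in mice, had 542, 537 and 536 CPM in treated and 3.02, 3.98 and 5.37 CPM in untreated libraries. Its change of 7.02 ± 0.18 was the largest among the listed genes of this family (adjusted p = 7.21e-11). A gene near it, Gm4841, which the list does not hold and which is named after its values were seen, had 94.6, 88.7 and 85.7 CPM with IFN and 0.344, 0.265 and 0.340 CPM without, a larger change of 8.13 ± 0.17 (adjusted p = 1.05e-11). Tgtp1 and Tgtp2, a near-identical pair whose counts may be split between copies, had 209.9, 223 and 205 CPM and 249, 249 and 239.8 CPM with IFN, against 2.68, 3.54 and 3.50 CPM and 3.59, 5.28 and 6.05 CPM without. They rose by 6.03 ± 0.12 and 5.62 ± 0.16 (adjusted p = 5.22e-12 and 1.47e-10). The regulatory members Irgm1, Irgm2 and Igtp, which keep effector members off the cell's own membranes, began from higher untreated levels. Irgm1 had 563, 606 and 600.2 CPM with IFN and 42.7, 56.4 and 57.00 CPM without, a change of 3.50 ± 0.11, and Igtp and Irgm2 rose by 4.27 ± 0.15 and 3.41 ± 0.11. Ifi47 rose by 3.34 ± 0.63 (adjusted p = 0.00718) and Gm12250 by 6.11 ± 0.19. The smallest rises were those of 9930111J21Rik1 (0.96) and 9930111J21Rik2 (1.12), the second of which missed the threshold without untreated replicate 1. Irgq, a divergent member, had 40.8, 39.2 and 39.4 CPM in treated and 46.9, 42.1 and 44.3 CPM in untreated libraries and did not pass (-0.16 ± 0.08, adjusted p = 0.213).

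Many of the strongly raised genes lie side by side. Of 242 protein-coding genes at least 2-fold higher, 96 (39.7%) had another such gene within 100 kb, and 48 of them formed 10 clusters of 3 or more. Of 293 protein-coding genes at least 2-fold lower, 51 (17.4%) had such a neighbour and 13 formed 3 clusters. The largest, at chr11:48861968-49135387 (GRCm38), held 10 of its 11 tested protein-coding genes among the higher set, from Irgm1 to Olfr1396, with Tgtp1, Tgtp2 and Ifi47 between them and log2 fold changes of 1.06 to 6.03. All tested protein-coding genes rose at least 2-fold in the guanylate-binding clusters at chr5:105014150-105293698 (6 genes) and chr3:142493978-142638008 (4 genes), in the PYHIN cluster at chr1:173723427-174031810 (6 genes) and in the antigen-processing cluster at chr17:34181987-34216321 (Psmb9, Tap1, Psmb8 and Tap2). The complement cluster at chr6:124512405-124636085 (C1ra, C1s1, C1rb and C1s2) rose between 1.41 and 1.78. Among lower genes, histone genes formed a cluster of 6 and a cluster of 4 on chromosome 13. Their spans held 16 and 14 tested protein-coding genes, so most genes there were not in the lower set. Each span runs between the outermost genes of its set, which by itself raises the share within it. The share with a neighbour in a random set of this size was not tested. Neighbouring genes of a family share sequence, and overlapping or misassigned reads were not tested.

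**Figure D2:**
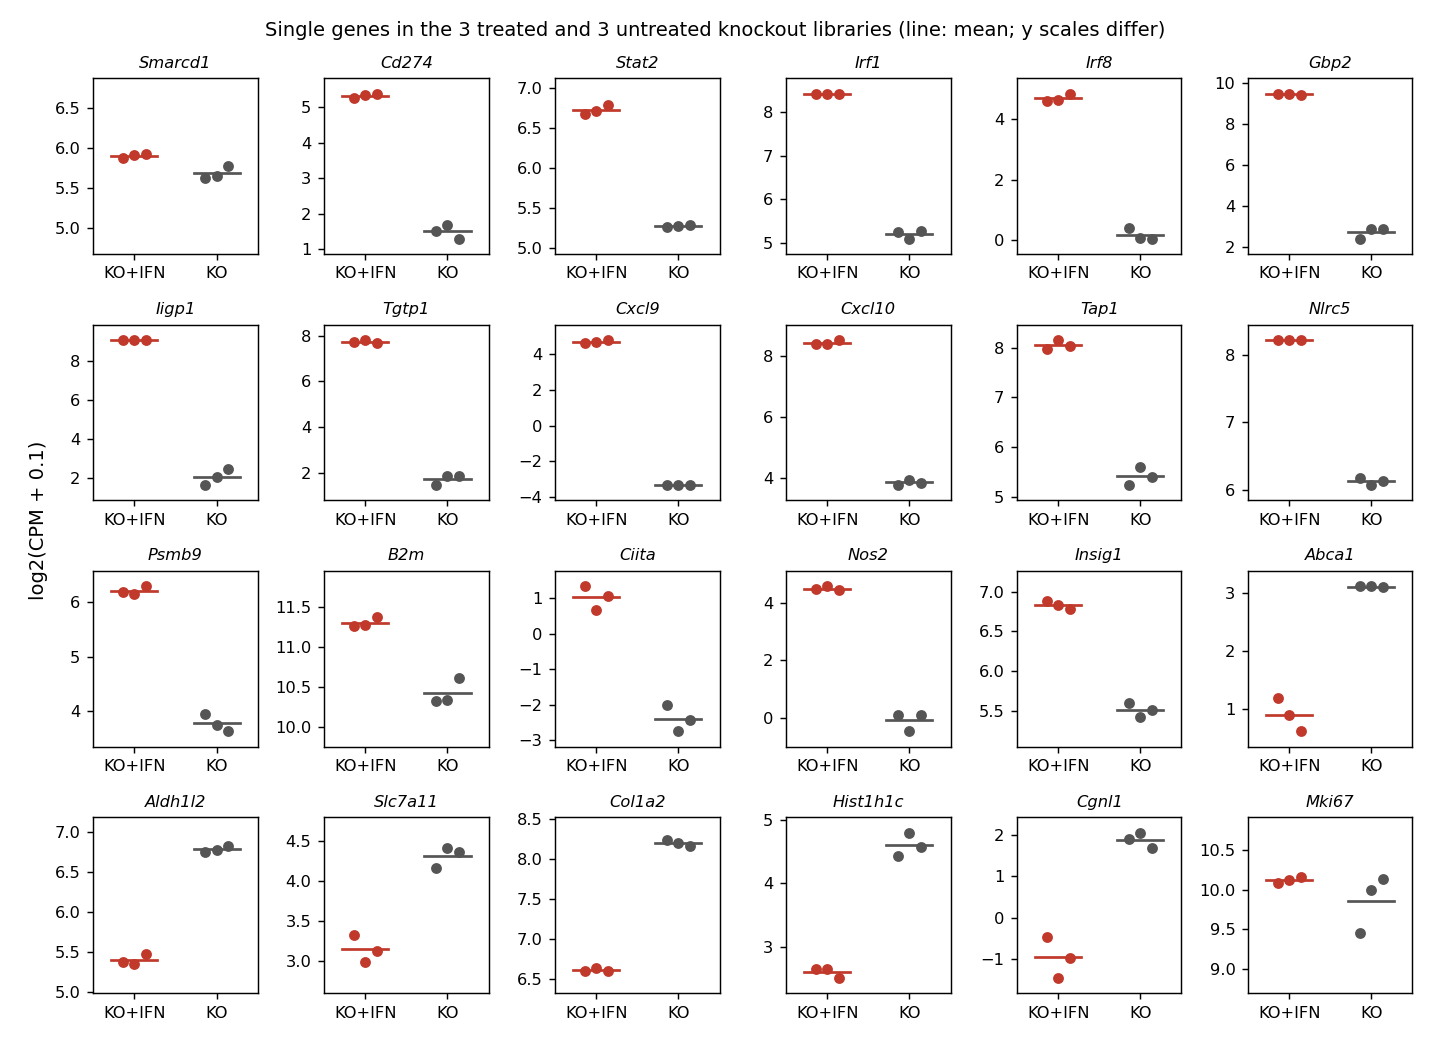
Each panel shows 1 gene in the 3 knockout libraries with IFN (red, left) and the 3 untreated knockout libraries (grey, right), as log2 of CPM plus 0.1, with a line at each group's mean and a y scale of its own. Groups overlap for Mki67 and lie apart for the other 23 genes, with Smarcd1 the closest of these at 0.22 on the log2 scale.

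Transcripts of genes for antigen presentation by MHC class I rose at most steps of this route. Of 16 tested genes of the immunoproteasome and peptide loading, 12 rose and 1 fell, with a median of 1.40. The peptide transporter subunit gene Tap1 had 251, 285 and 262 CPM in treated and 37.7, 48.3 and 42.4 CPM in untreated libraries, a change of 2.64 ± 0.12 (adjusted p = 1.31e-08). Psmb9, a catalytic subunit of the immunoproteasome, had 72.5, 70.8 and 77.9 CPM with IFN and 15.3, 13.4 and 12.3 CPM without, a change of 2.43 ± 0.24 (adjusted p = 2.66e-05). Nlrc5, the transcriptional activator of class I genes, had 299, 298 and 299 CPM with IFN and 72.1, 67.01 and 69.8 CPM without, with no overlap and a change of 2.1 ± 0.08 (adjusted p = 1.56e-09). The loading factor gene Tapbpl and the ubiquitin-conjugating enzyme gene Ube2l6 rose by 1.91 and 1.85. Calr, an ER chaperone of the loading complex, was the member that fell (-0.40 ± 0.08, adjusted p = 0.00693).

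Of 15 tested class I heavy chain genes with B2m, 9 rose and 0 fell, with a median of 0.88 and summed levels of 8826, 8919 and 9118 TPM with IFN, against 4863, 5100 and 5621 TPM without. The classical heavy chain gene H2-K1 had 805, 833 and 777 CPM in treated and 482, 481 and 460.1 CPM in untreated libraries, a change of 0.76 ± 0.13 (adjusted p = 0.00247). H2-Q4, H2-T22 and H2-T24, which encode nonclassical chains, rose by 1.38, 1.16 and 0.95, and reads of heavy chain genes can be shared between copies. B2m, the light chain of all class I molecules, had 2453, 2489.8 and 2658 CPM with IFN and 1286, 1290.4 and 1559.8 CPM without. Its change of 0.88 ± 0.23 passed (adjusted p = 0.0269). The B2m call was lost without a filter on low counts, and without untreated replicate 1 or 2 or any 1 treated replicate (adjusted p up to 0.0988). Among class II genes Ciita, the activator of class II genes, had 2.44, 1.51 and 1.999 CPM in treated and 0.147, 0.0482 and 0.0849 CPM in untreated libraries (4.37 ± 0.35, adjusted p = 3.18e-06), and of the 11 class II genes listed, 5 were tested and only Ciita passed. The invariant chain gene Cd74 had 0.541, 0.511 and 1.01 CPM with IFN and 0.589, 0.506 and 0.255 CPM without, which overlap (adjusted p = 0.255).

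Cd274 (chromosome 19, 29367455 to 29388095), the gene of PD-L1 and so of the protein named in the series title, had 37.9, 40.2 and 41.5 CPM in treated libraries, against 2.77, 3.11 and 2.36 CPM in untreated ones. Every treated library lay far above every untreated one, and the change was 3.86 ± 0.12 (adjusted p = 4.06e-10). Of 13 tested ligands of T and NK cell receptors, 5 rose and 1 fell, with a median of 0.37. Tnfrsf14, which binds the inhibitory receptor BTLA, rose by 1.40 ± 0.17 (adjusted p = 0.000111), and the adhesion molecule gene Vcam1 by 0.74 ± 0.12 (adjusted p = 0.00145). Cd276, the gene of the B7-H3 ligand, moved the other way, with 5.53, 5.36 and 4.88 CPM in treated and 8.45, 8.51 and 7.13 CPM in untreated libraries (-0.61 ± 0.12, adjusted p = 0.00585).

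Chemokines that attract T cells through CXCR3 rose in 3 of 3 tested genes. Cxcl9 had 24.4, 25.8 and 27.8 CPM with IFN and 0 counts in all 3 untreated libraries, at least 1082-fold higher with a floor of 3 counts set for the untreated group. Cxcl10 (chromosome 5, 92346638 to 92348889) had 337, 341 and 369 CPM in treated and 13.6, 15.4 and 14.4 CPM in untreated libraries, a change of 4.59 ± 0.14 (adjusted p = 3.42e-10). Cxcl11 was low, at 2.21, 3.50 and 3.01 CPM with IFN and 0.0982, 0.0964 and 0.297 CPM without, and rose by 4.08 ± 0.45 (adjusted p = 7.13e-05), with 41.7% of its exonic bases overlapping another gene. Of 13 other chemokine genes tested, 6 rose and 1 fell, with a median of 1.31, and none was called lower without any 1 library other than treated replicate 2. The neutrophil attractant gene Cxcl1 had 266, 269 and 268 CPM with IFN and 32.1, 30.97 and 31.1 CPM without (3.09 ± 0.10, adjusted p = 4.06e-10). Ccl2, an attractant of monocytes, had 707, 701 and 741 CPM with IFN and 394, 266 and 298 CPM without (1.17 ± 0.14, adjusted p = 0.000121), Ccl5 rose by 2.02 ± 0.23 and Cxcl16 by 1.31 ± 0.11. Of 19 cytokines and growth factors, 6 rose and 1 fell, a lower count that was 0 without any 1 of the 6 libraries. These included Csf1, the growth factor of macrophages, with 517, 516 and 538 CPM in treated and 250.4, 254 and 262 CPM in untreated libraries (1.04 ± 0.07), the epidermal growth factor receptor ligand gene Hbegf (1.01 ± 0.07) and the interleukin-18 trap gene Il18bp (1.19 ± 0.15).

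Genes best known from the type I response rose in some families and hardly in others. Of 6 tested Ifit genes, which bind foreign RNA, 3 rose. Ifit3 had 22.02, 25.5 and 22.8 CPM in treated and 4.96, 7.13 and 7.83 CPM in untreated libraries (1.82 ± 0.16, adjusted p = 6.72e-06), and its near-copy Ifit3b rose by 1.56 ± 0.13. Ifit1 had 15.9, 15.9 and 16.2 CPM with IFN and 7.61, 11.2 and 12.5 CPM without (0.61 ± 0.14, adjusted p = 0.00982). Only Oasl2 rose among 9 tested oligoadenylate synthetase genes and RNase L (1.36 ± 0.11, adjusted p = 2.55e-06), and 1 fell, with 0 called lower without untreated replicate 2 or 3 or treated replicate 1 or 3. The group median was -0.04. Of 12 tested Mx, viperin, tetherin and IFITM genes and their like, 2 rose, Samhd1 (1.50 ± 0.08) and Trim21 (1.13 ± 0.12), and 1 fell, with 0 called lower without untreated replicate 1 or treated replicate 3. The ISG15 pathway rose in its activating enzyme gene Uba7 (2.08 ± 0.11) and in the ligase gene Herc6 (1.23 ± 0.08), with Ube2l6 the third of 5 tested members. Of 8 PARP and DTX genes, 6 rose, led by Parp14 with 199, 201 and 219 CPM in treated and 42.6, 49.99 and 49.6 CPM in untreated libraries (2.12 ± 0.09). Among 12 PYHIN genes, whose proteins include DNA sensors, 8 rose and 0 fell, led by Ifi206 with 6.59, 7.51 and 8.39 CPM with IFN and 0.909, 0.916 and 1.06 CPM without (2.95 ± 0.28). Of 19 genes for RNA and DNA sensing, 9 rose and 1 fell, and the Z-nucleic acid sensor gene Zbp1 had 124, 125 and 133 CPM in treated and 6.09, 7.52 and 8.68 CPM in untreated libraries (4.10 ± 0.12, adjusted p = 3.16e-10).

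Metabolic and antimicrobial effectors of IFN-gamma rose in 10 of 14 tested genes, with a median of 1.06. Nos2, which makes nitric oxide, had 21.9, 23.6 and 21.6 CPM with IFN and 0.982, 0.627 and 0.977 CPM without (4.69 ± 0.16, adjusted p = 9.42e-10). Acod1, which makes itaconate, had 5.46, 6.16 and 6.08 CPM in treated and 0.147, 0.193 and 0.0849 CPM in untreated libraries (5.37 ± 0.25). Ido1, which degrades tryptophan, had 53, 46 and 41 counts with IFN and 0 counts in every untreated library, at least 48.7-fold higher. Serpina3f, a protease inhibitor gene of a cluster of near-copies, had 29.6, 31.4 and 32.6 CPM with IFN and 0 counts in every untreated library, at least 1299-fold higher, and Serpina3g rose by 4.70 ± 0.29. Apol6, an apolipoprotein L gene, had 21.5, 25.7 and 15.5 CPM with IFN and 0.368, 0.337 and 0.340 CPM without (5.89 ± 0.28). Complement genes rose in 8 of 12 tested members and fell in 0, led by C4b with 13.4, 12.6 and 13.3 CPM in treated and 0.614, 0.506 and 0.488 CPM in untreated libraries (4.60 ± 0.16). Of 28 genes of inflammatory and apoptotic death, 10 rose and 2 fell, and 1 lower call was left without untreated replicate 2 or treated replicate 1 or 3. Mlkl, the executioner of necroptosis, had 340.1, 347 and 356 CPM with IFN and 145, 186 and 186 CPM without (1.01 ± 0.11). The death receptor gene Fas had 2.098, 2.80 and 2.36 CPM with IFN and 0.540, 0.651 and 0.573 CPM without (2.03 ± 0.17), and Xaf1 rose by 1.67 ± 0.15.

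**Figure D3:**
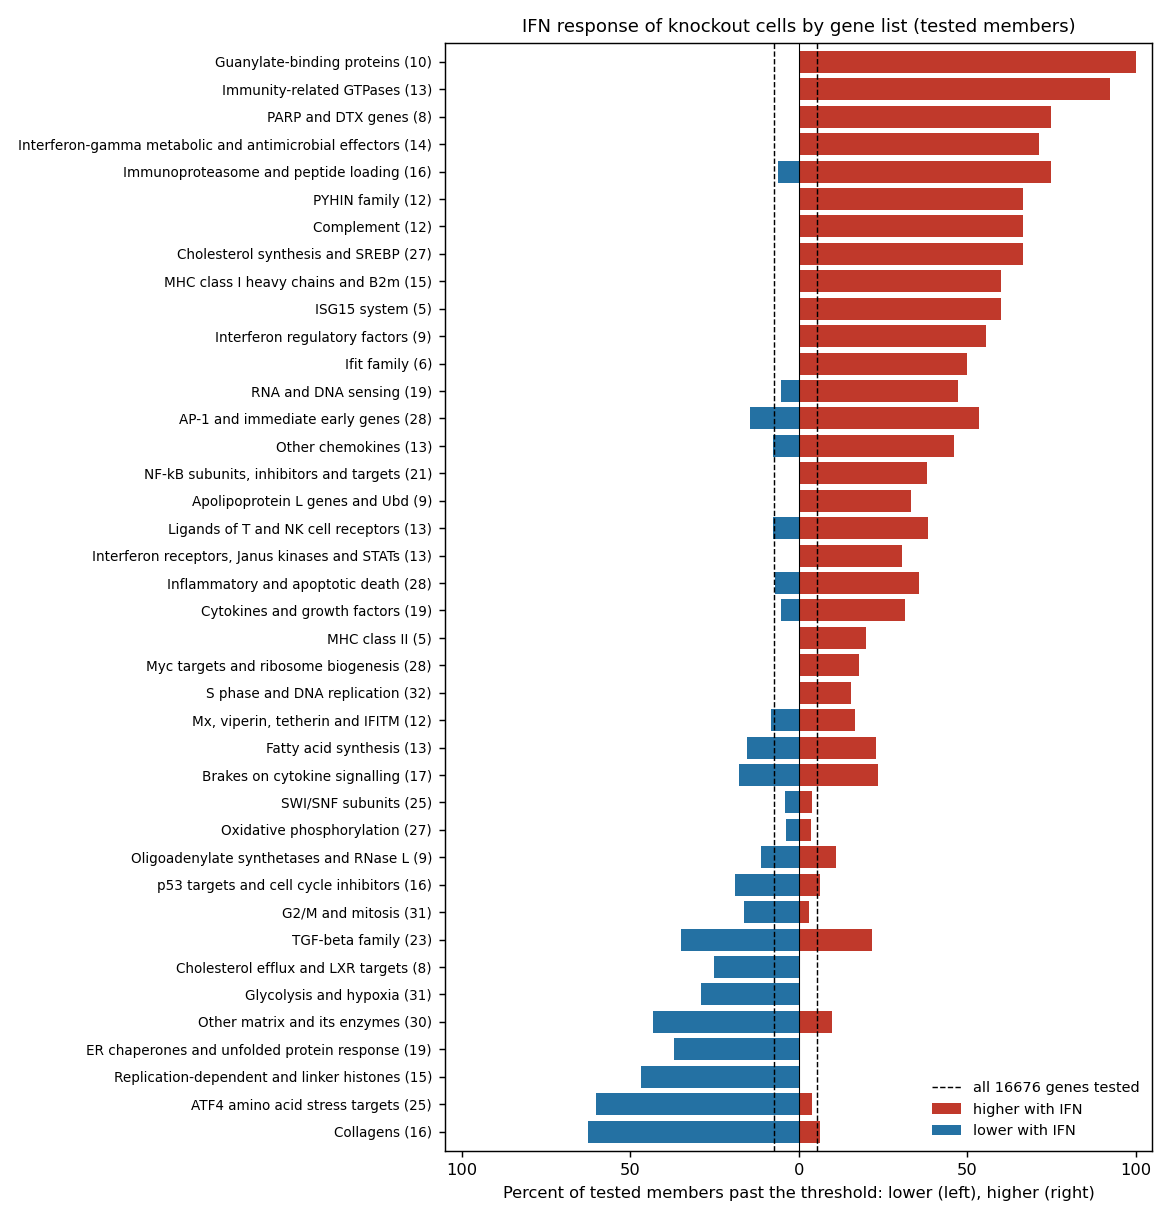
Bars give, for each gene list, the percent of its tested members (number in brackets) that were higher (red, right) or lower (blue, left) in knockout cells with IFN than in untreated knockout cells, and dashed lines give 5.47% and 7.28%, the same over all 16676 genes. All 10 guanylate-binding protein genes and 12 of 13 immunity-related GTPase genes were higher, and collagens (10 of 16) and ATF4 targets (15 of 25) had the largest lower shares.

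Genes outside the immune response moved in groups as well. Cholesterol synthesis genes rose together: 18 of 27 tested genes of this pathway and of SREBP control were higher and 0 lower, with a median of 0.71 and summed levels of 1826, 1844 and 1812 TPM with IFN, against 1224, 1147 and 1149 TPM without. Insig1, the SREBP target that holds SREBP in the ER, had 118, 114 and 110.0 CPM in treated and 48.4, 43.00 and 45.6 CPM in untreated libraries (1.32 ± 0.08, adjusted p = 3.8e-07). Hmgcs1 had 127, 132 and 127 CPM with IFN and 57.7, 60.8 and 57.7 CPM without (1.13 ± 0.08, adjusted p = 8.83e-07). Abca1 (chromosome 4, 53030787 to 53159895), the cholesterol exporter, moved the other way, with 2.17, 1.75 and 1.43 CPM in treated and 8.59, 8.58 and 8.51 CPM in untreated libraries. It fell by 2.26 ± 0.16 on the log2 scale (adjusted p = 8.98e-07) and was, with Mylip (-0.60 ± 0.12), 1 of 2 lower genes among 8 tested efflux and LXR targets. Fatty acid synthesis was mixed, with 3 of 13 higher and 2 lower, against 5.47% and 7.28% of all genes.

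Targets of ATF4, the transcription factor of the amino acid stress response, fell in 15 of 25 tested genes and rose in 1 (0 without any 1 library other than untreated replicate 3), with a median of -0.52 and summed levels of 2882, 2828 and 2946 TPM with IFN, against 3912, 3856 and 3565 TPM without. The mitochondrial folate enzyme gene Aldh1l2 had 41.4, 40.5 and 44.5 CPM in treated and 108, 109 and 113 CPM in untreated libraries (-1.39 ± 0.09, adjusted p = 7.65e-07). The cystine transporter gene Slc7a11 had 9.90, 7.81 and 8.59 CPM with IFN and 17.8, 21.1 and 20.5 CPM without (-1.17 ± 0.13, adjusted p = 5.89e-05). Vldlr fell by 0.79 ± 0.08 and Gdf15 by 1.04 ± 0.16. Atf4 itself, looked at after these values were seen, had 612, 601 and 612 CPM with IFN and 656, 609 and 620.1 CPM without, which overlap (adjusted p = 0.764). Of 19 ER chaperone and unfolded protein response genes, 7 fell and 0 rose, with a median of -0.17. Herpud1, of ER-associated degradation, had 50.3, 50.7 and 46.2 CPM in treated and 76.3, 75.8 and 81.8 CPM in untreated libraries (-0.67 ± 0.07, adjusted p = 6.78e-05), and the stress sensor gene Ern1 fell by 0.53 ± 0.08. Leaving out treated replicate 2 or 3 left 4 of these 7 ER calls.

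Glycolysis and hypoxia genes fell in 9 of 31 tested members and rose in 0, with a median of -0.22. Ldha, lactate dehydrogenase A, had 1136, 1132 and 1066 CPM in treated and 1738, 1464 and 1361 CPM in untreated libraries, with no overlap. It fell by 0.45 ± 0.14 (adjusted p = 0.047), a call that ended when untreated replicate 1 or 2 or any 1 treated replicate was left out. Aldoa, the aldolase gene, had 735, 748 and 749.9 CPM with IFN and 1198, 995 and 1026 CPM without (-0.53 ± 0.10, adjusted p = 0.00488). Untreated replicate 1, which stood apart on the second component, had the highest level of both genes. Without it 5 of the 31 genes were called lower, and without treated replicate 3 also 5.

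Immediate early genes rose in 15 of 28 tested members and fell in 4, with a median of 0.61. Without treated replicate 3 the higher count was 9. Ier3, an anti-apoptotic early response gene, had 236, 233 and 227 CPM in treated and 115, 102 and 98.9 CPM in untreated libraries (1.14 ± 0.08, adjusted p = 1.33e-06), and Junb rose by 0.96 ± 0.09, which missed the threshold in limma on deposited TPM. Atf3, a stress-induced repressor, had 11.2, 11.6 and 11.6 CPM with IFN and 25.98, 26.5 and 22.3 CPM without (-1.12 ± 0.13), Dusp1 fell by 0.78 ± 0.15 and Jund, 52.6% of whose exonic bases overlap other genes, by 0.82 ± 0.09. Of 21 NF-kB genes, 8 rose and 0 fell, among them the inhibitor genes Nfkbiz (1.16 ± 0.12) and Nfkbie (0.92 ± 0.11).

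Proliferation, the other subject of the title, showed no common direction among cell cycle genes. Of 32 tested S phase genes, 5 rose and 0 fell (median -0.04). Of 31 G2/M genes, 1 rose and 5 fell (median -0.03), with 3 lower calls left without treated replicate 3. Over all genes 5.47% rose and 7.28% fell, so S phase calls leaned higher and G2/M calls lower, with medians near 0. Mki67, the marker of cycling cells, had 1088, 1113 and 1142 CPM with IFN and 699.8, 1019 and 1122 CPM without, which overlap (adjusted p = 0.533). Top2a, topoisomerase II alpha, had 1411, 1399 and 1344 CPM in treated and 839.9, 1056 and 1039 CPM in untreated libraries (0.50 ± 0.10, adjusted p = 0.00453). The mitotic cyclin gene Ccnb2 had 46.2, 46.6 and 47.02 CPM with IFN and 74.7, 81.1 and 87.6 CPM without (-0.80 ± 0.07), and the anaphase activator gene Cdc20 fell by 0.76 ± 0.11. Of 16 tested p53 targets and cell cycle inhibitors, 1 rose, Trp53 itself, and 3 fell, with a median of 0.07. Trp53 had 735, 714 and 737 CPM in treated and 509, 502 and 516 CPM in untreated libraries (0.52 ± 0.06, adjusted p = 0.000179), and the targets Plk2 and Gadd45a fell by 0.90 ± 0.07 and 1.03 ± 0.09. Of 28 Myc targets, 5 rose, and 0 to 5 did when 1 of the 6 libraries was left out. Without untreated replicate 1 there were 2 such calls, without untreated replicate 2 there were 3, and without treated replicate 1, 2 or 3 there were 2, 1 or 0.

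Histone genes detected in poly-A libraries fell in 7 of 15 tested members, with a median of -0.70. The linker histone gene Hist1h1c had 6.16, 6.16 and 5.61 CPM with IFN and 21.4, 27.7 and 23.7 CPM without (-2.02 ± 0.17, adjusted p = 4.65e-06), Hist1h2bc fell by 1.46 ± 0.11 and Hist2h2be by 1.1 ± 0.11. Most histone messages lack a poly-A tail, so these counts are of the adenylated fraction.

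Extracellular matrix genes fell widely. Of 16 tested collagen genes, 10 fell and 1, Col8a1 (0.57 ± 0.11), rose, with a median of -0.40 and summed levels of 641, 634 and 628 TPM with IFN, against 827, 849 and 846 TPM without. Col1a2 (chromosome 6, 4504814 to 4541544), a chain of type I collagen, had 97.02, 99.1 and 96.97 CPM in treated and 303, 295 and 285 CPM in untreated libraries (-1.59 ± 0.09, adjusted p = 8.73e-08). Col3a1 and Col1a1 fell by 1.31 ± 0.10 and 1.31 ± 0.14. Of 30 other matrix genes, 13 fell and 3 rose, and the higher count was 1 or 2 when any 1 of the 6 libraries was left out. Spp1, which encodes osteopontin, had 26.9, 25.7 and 26.4 CPM with IFN and 61.5, 65.4 and 65.6 CPM without (-1.29 ± 0.07), whereas Tnc, tenascin C, had 10.3, 11.2 and 12.2 CPM with IFN and 3.07, 2.19 and 2.63 CPM without (2.09 ± 0.15). The TGF-beta family split, with 5 of 23 higher and 8 lower, against 5.47% and 7.28% of all genes. The activin trap gene Fst had 56.9, 55.6 and 53.3 CPM in treated and 5.48, 5.23 and 5.90 CPM in untreated libraries (3.32 ± 0.11, adjusted p = 5.67e-10), Bmp2 rose by 1.18 ± 0.13 and the BMP target gene Id2 fell by 0.87 ± 0.11. Of 9 tested fibroblast marker genes, 2 rose, Dcn and Acta2, and 3 fell, among them Col1a1 and Col3a1. The Acta2 call was lost without untreated replicate 2 or 3 or treated replicate 1 or 3. Fibroblast markers summed to 1558 to 1649 TPM in treated and 1644 to 1794 TPM in untreated libraries, which overlap. Their part in the matrix result was not tested.

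The 12 largest falls among genes with a mean of at least 2 CPM, no overlap between groups and no clone-based symbol included those of Cgnl1, which encodes a junction protein, with 0.632, 0.269 and 0.415 CPM with IFN and 3.59, 4.03 and 3.10 CPM without (-3.00 ± 0.33, adjusted p = 6.4e-05), of Fam129a (-2.37 ± 0.22), Akap12 (-2.04 ± 0.25) and the serine protease gene Htra3 (-1.97 ± 0.14). Among the few epithelial markers tested, Cdh1, E-cadherin, had 1.20, 1.08 and 1.17 CPM in treated and 3.36, 3.54 and 4.42 CPM in untreated libraries (-1.72 ± 0.16), Krt19 fell to 0.0451, 0 and 0.0519 CPM, against 0.638, 0.554 and 0.616 CPM without IFN, and Muc1 rose by 1.66 ± 0.33. Of the other SWI/SNF subunit genes, Smarcc1 (0.32 ± 0.10) and Arid1a (-0.38 ± 0.11) were the 2 of 25 tested that passed, near the background share, and both calls were lost when single libraries were left out, any 1 of the 6 for Smarcc1 and any 1 but untreated replicate 1 for Arid1a. Of 27 oxidative phosphorylation genes, 1 rose and 1 fell, against 5.47% and 7.28% of all genes. The higher count was 0 without any 1 library other than untreated replicate 2, and the lower count 0 without any 1 other than untreated replicate 3.

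Ranked by mean TPM, which is per length and so allows genes to be compared, the 10 largest gains included B2m (5941 with IFN, 3330 without), Ccl2 (1735 and 799.6), Cxcl10 (636 and 27.1), Gbp2 (568.5 and 5.33), Cxcl1 (554.8 and 67.3) and Tubb3, a neuronal tubulin gene (979.1 and 462.9). The 10 largest losses included the galectin gene Lgals3 (1189 with IFN, 1781 without), Ldha (1537 and 2117), Pgk1 (1047 and 1577) and Sparc (492 and 723). The Lgals3 call was lost without treated replicate 3, and the Pgk1 call also without untreated replicate 1.

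Whether the response of knockout cells differed from that of wild-type cells was tested by the interaction of the fit, over all genes. It passed for 170 genes (1.02%), with a higher log2 fold change in knockout cells for 118 (0.708%) and a lower one for 52 (0.312%). Higher and lower keep the sign here, so a gene that fell further in knockout cells counts as lower. In wild-type cells IFN raised 777 genes (4.66%) and lowered 787 (4.72%). Of the 913 genes that rose in knockout cells, 452 also rose in wild-type cells, 6 fell and 455 did not pass there, and the interaction passed as higher for 106 and as lower for 1, Rgs16. Of the 1214 that fell, 445 also fell in wild-type cells, 4 rose and 765 did not pass, and the interaction passed as lower for 42 and as higher for 2, Lgr6 and Ntn4. The Rgs16 and Ntn4 differences passed in 5 and 4 of 17 other settings. Missing the threshold in wild-type cells does not show a different response.

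Among the GTPases the interaction passed for 9 of 10 guanylate-binding protein genes and 9 of 13 immunity-related GTPase genes, against 1.02% of all genes. In each the log2 fold change was larger in knockout cells, which does not mean a larger gain in CPM. Gbp2 rose by 6.77 ± 0.13 in knockout and 2.87 ± 0.11 in wild-type cells, a difference of 3.91 ± 0.15 (adjusted p = 1.58e-08). The treated levels were 707 ± 16.7 CPM in knockout and 577 ± 10.9 CPM in wild-type cells (SD, n = 3 each), and the untreated levels 6.45 ± 1.14 and 79.2 ± 2.47 CPM. Iigp1 likewise differed by 5.0 ± 0.21 (adjusted p = 4.24e-08), with 538 ± 3.41 CPM in treated knockout and 559 ± 6.61 CPM in treated wild-type cells, and 4.12 ± 1.18 and 138 ± 12.8 CPM in the untreated ones. As ratios, the groups lay closer with IFN than without it in both genes. Treated levels went both ways in these families. Tgtp1 had 213 ± 9.36 CPM in treated knockout and 432 ± 14.2 CPM in treated wild-type cells, and 3.24 ± 0.489 and 99.9 ± 5.03 CPM untreated. Gbp4 had 242 ± 7.92 CPM in treated knockout and 147 ± 14.4 CPM in treated wild-type cells. Gbp11 was the guanylate-binding gene whose difference did not pass (adjusted p = 0.374).

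Among the signalling and regulatory genes the difference was 1.02 ± 0.10 for Irf1 (adjusted p = 0.00015) and 0.93 ± 0.19 for Irf8 (adjusted p = 0.0315). The Irf8 difference passed in 7 of 17 other settings, and was lost with the replicate block and when any 1 library but untreated knockout replicate 1 or untreated wild-type replicate 1 or 2 was left out. For Stat3 it was 0.31 ± 0.11 and did not pass (adjusted p = 0.298).

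Outside these families, too, some genes had a treated level in knockout cells below that of treated wild-type cells. Cd274 rose by 3.86 in knockout and 2.65 ± 0.11 in wild-type cells, a difference of 1.22 ± 0.16 (adjusted p = 0.00127), yet had 39.9 ± 1.83 CPM in treated knockout and 112 ± 9.26 CPM in treated wild-type cells, and 2.75 ± 0.377 and 17.9 ± 1.64 CPM untreated. Cxcl10 differed by 2.87 ± 0.18 (adjusted p = 1.34e-06), with 349 ± 17.5 CPM in treated knockout and 1749.7 ± 347 CPM in treated wild-type cells, and 14.5 ± 0.901 and 530.0 ± 43.3 CPM untreated. Ifit3 differed by 1.60 ± 0.21 (adjusted p = 0.00128), and its treated level in knockout cells, 23.4 ± 1.80 CPM, lay far below both wild-type groups, 534 ± 18.8 CPM with IFN and 461 ± 68.99 CPM without. Differences in level between knockout and wild-type cells at 1 treatment were not tested here.

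**Figure D4:**
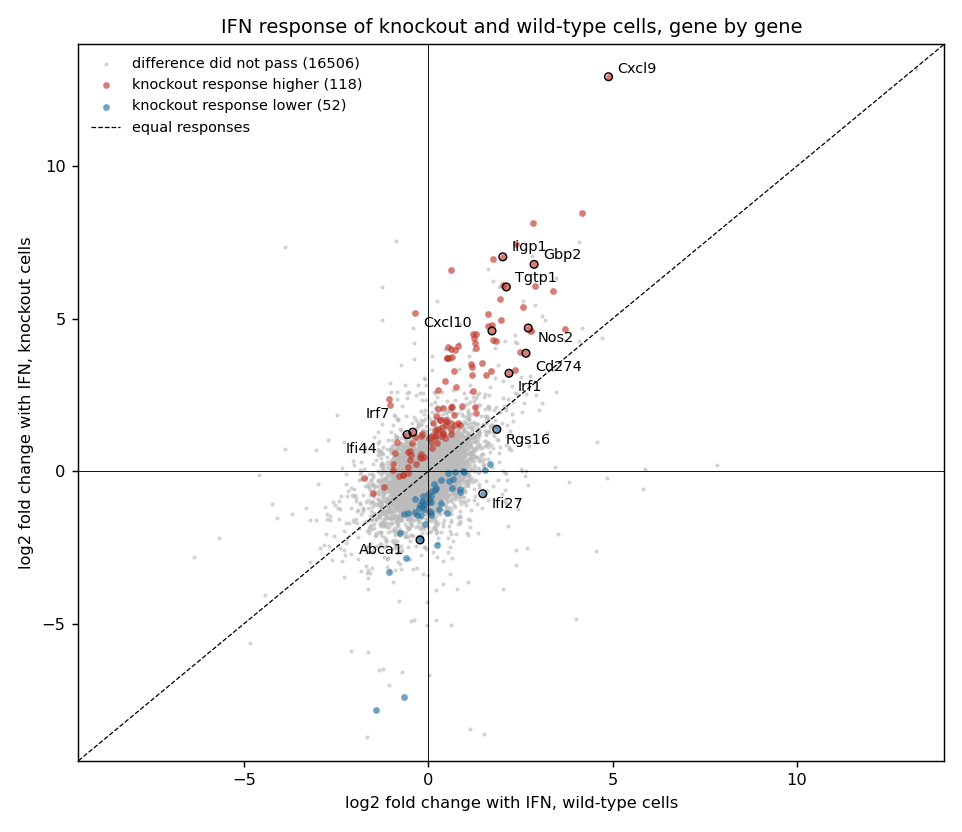
Each point is 1 tested gene, with its log2 fold change with IFN in wild-type cells on the x axis and in knockout cells on the y axis, and the dashed line marks equal responses. The 118 genes with a higher log2 fold change in knockout cells (red) include Cxcl9, Iigp1, Gbp2 and Tgtp1 above the line, and the 52 with a lower one (blue) include Abca1 and Ifi27.

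A few genes were called in opposite directions, 6 higher in knockout and lower in wild-type cells, and 4 the reverse, named here after their values were seen. Among the first were Irf7 (1.27 in knockout, -0.43 ± 0.09 in wild-type cells), Ifi44 (1.19 and -0.58 ± 0.16), Ly6c1 (0.95 and -0.84 ± 0.08) and Ly6e (0.37 and -0.51 ± 0.09), IFN-inducible genes in other settings. Irf7 had 63.6 ± 6.13 CPM in treated and 26.3 ± 1.17 CPM in untreated knockout cells, and 195 ± 21.1 CPM in treated and 261 ± 5.06 CPM in untreated wild-type cells. Ifi27, a mitochondrial IFN-inducible gene, fell in knockout (-0.75) and rose in wild-type cells (1.47 ± 0.17), a difference of -2.22 ± 0.24 (adjusted p = 0.000224). The others were Cyp26b1 and Apod, higher in knockout cells, and Ublcp1, Sdpr and Gem, lower in knockout cells, and Ublcp1 overlapped between treated and untreated knockout libraries.

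Other groups showed where the interaction did and did not pass. Among 25 ATF4 targets, the difference was negative for 5, all of which fell in knockout cells: Aldh1l2 (-0.84 ± 0.13), Slc7a11 (-0.99 ± 0.18), Gdf15 (-1.37 ± 0.22), Chac1 (-1.43 ± 0.22) and Trib3 (-1.12 ± 0.22, in 9 of 17 other settings). The list's median was -0.52 in knockout and -0.02 in wild-type cells. Abca1 differed by -2.03 ± 0.22 (adjusted p = 0.00022), with 1.78 ± 0.370 CPM in treated and 8.56 ± 0.0435 CPM in untreated knockout cells, and 4.36 ± 0.501 CPM in treated and 5.11 ± 0.220 CPM in untreated wild-type cells. The p53 targets Plk2 (-0.92 ± 0.10) and Gadd45a (-1.09 ± 0.13), which fell in knockout cells, and 3 of 15 histone genes also had a negative difference. Of 31 glycolysis and hypoxia genes, 6 had a positive difference, and none of these 6 passed within knockout cells. The list's median was -0.22 in knockout and -0.53 in wild-type cells, with 9 and 16 genes called lower. In 27 cholesterol synthesis genes and 16 collagen genes the interaction passed for 0, with medians of 0.71 in knockout and 0.61 in wild-type cells for the first list and -0.40 and -0.31 for the second. For Col1a2 the responses were -1.59 ± 0.09 in knockout and -1.59 ± 0.09 in wild-type cells, a difference of -0.00 ± 0.12.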

How the data were processed

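Poly-A RNA of 12 MC38 libraries was sequenced as 150 bp paired reads, per the labels. Per the submitters' processing notes, CASAVA, Trimmomatic 0.36, FastQC 0.11.2 and HISAT2 2.1.0 were used with genome build GRCm38. How reads were counted, with which strand setting, and how TPM were made is not given in the sources used here. As deposited, the tables hold raw counts for Ensembl genes and the authors' own TPM, with 0 columns of other samples.

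From the counts, edgeR 4.0.16 (R 4.3.3) tested genes that passed filterByExpr at a minimum count of 10 and a minimum total of 15. After TMM scaling, a robust quasi-likelihood model of all 12 libraries had 1 mean for each group (8 residual degrees of freedom, common biological coefficient of variation 0.168). Contrasts were IFN in knockout cells, IFN in wild-type cells and their difference, the interaction, each with Benjamini-Hochberg adjustment over 16676 genes and a threshold of 0.05. Adjusted p values are from edgeR unless another tool is named. A standard error is the size of the log2 fold change divided by the root of its F statistic, which is approximate near 0 counts. Values after ± are SD for CPM and SE for log2 fold changes. Folds against 0 counts use a floor of 3 counts over the group. TPM were used as deposited, and limma on them added a pseudocount of 1. Totals of 37270418 to 45721356 counts in the knockout libraries put that floor far below the named levels, for counting error only. The fit was tested on simulated data.

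The members and the 48 gene lists were chosen with earlier results of these data known. Named are a panel of 30 genes, all members of the regulatory factor and GTPase lists, the 12 largest changes in each direction among called genes with a mean of at least 2 CPM, no overlap between groups and no clone-based symbol, the 10 largest gains and losses in mean TPM, up to 3 called members with the smallest p in each direction of each list, and 8 called genes at 0 counts in untreated knockout cells. Ifnar2, Ptpn2, Atf4, Gm4841, Chac1, Trib3, Rgs16, Lgr6, Ntn4, genes of the position clusters and genes called in opposite directions were named after their values were seen. A few named items are not reported here. Positions and exon overlaps are from GENCODE M21 (99.63% of gene identifiers matched), and promoters are from a RefSeq table on GRCm38.p6. Replicate pairs within the knockout groups correlated at 0.9844 to 0.9891 and differed beyond counting noise, so none was a duplicate. Alternatives were DESeq2 1.42.0 (size factors and the Wald test), limma 3.58.1, other filters, a replicate block, the 6 knockout libraries alone and leaving out each library.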

Additional observations from a re-analysis of the deposited data

Results flagged for a closer look

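The genes below are those described above whose response to IFN differed between knockout and wild-type cells by the interaction test (edgeR, adjusted p below 0.05 over all 16676 genes, 170 passing). Values are the log2 fold change with IFN in knockout cells minus that in wild-type cells, from 6 libraries each. Where a group is near 0 counts, as for Cxcl9 and Ido1, the fitted value depends on the prior count.

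The difference was 5.30 ± 0.20 for Gm4841, a gene near Iigp1. Among GTPase genes it was 5.0 ± 0.21 for Iigp1, 4.09 ± 0.23 for Gm12250, 3.92 ± 0.14 for Tgtp1, 3.69 ± 0.19 for Tgtp2, 2.43 ± 0.19 for Igtp, 2.35 ± 0.14 for Irgm1 and 2.23 ± 0.14 for Irgm2. It was 3.91 ± 0.15 for Gbp2, 3.28 ± 0.26 for Gbp6, 3.17 ± 0.14 for Gbp4, 3.12 ± 0.22 for Gbp7, 3.07 ± 0.26 for Gbp10, 1.59 ± 0.28 for Gbp8 and 2.97 ± 0.25 for Gm12185. The Gbp8 call was kept in 16 of 17 other settings.

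For chemokines and ligands it was 8.04 ± 0.85 (Cxcl9), 3.54 ± 0.56 (Cxcl11), 2.87 ± 0.18 (Cxcl10), 1.76 ± 0.31 (Ccl5) and 1.22 ± 0.16 (Cd274). Signalling and regulatory factors gave 1.09 ± 0.09 (Stat2), 1.70 ± 0.13 (Irf7), 1.02 ± 0.10 (Irf1) and 0.93 ± 0.19 (Irf8). Class I genes gave 1.44 ± 0.16 (Tap1), 0.99 ± 0.15 (H2-T22), 0.89 ± 0.13 (H2-T24), 0.85 ± 0.11 (Nlrc5), 0.77 ± 0.14 (H2-Q4) and 0.64 ± 0.11 (Tapbpl). Of 17 other settings the call was kept in 7 for Irf8, 13 for H2-Q4, 14 for Tapbpl and 16 for Ccl5.

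For effectors and antiviral genes it was 4.27 ± 0.74 (Ido1), 2.81 ± 0.31 (Acod1), 1.98 ± 0.21 (Nos2), 2.50 ± 0.35 (Apol6), 1.81 ± 0.21 (C4b), 3.29 ± 0.16 (Zbp1), 2.51 ± 0.35 (Ifi206), 1.36 ± 0.20 (Xaf1) and 1.22 ± 0.13 (Parp14). It was 1.60 ± 0.21 (Ifit3), 1.43 ± 0.17 (Ifit3b), 1.19 ± 0.15 (Oasl2), 1.48 ± 0.14 (Uba7), 0.83 ± 0.11 (Herc6) and 0.77 ± 0.11 (Samhd1), with the Ido1 call kept in 7 of 17 other settings. Named genes outside the immune lists with a positive difference included Fst (0.98 ± 0.15), Ier3 (0.79 ± 0.12), Lgr6 (0.80 ± 0.11) and Ntn4 (0.69 ± 0.14). Fst and Ier3 rose more in knockout cells. Lgr6 (-0.71 in knockout and -1.51 in wild-type cells) and Ntn4 (-0.51 and -1.20) fell less there.

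The difference was negative for Abca1 (-2.03 ± 0.22), Chac1 (-1.43 ± 0.22), Gdf15 (-1.37 ± 0.22), Hist1h2bc (-1.24 ± 0.16), Hist1h1c (-1.24 ± 0.23), Trib3 (-1.12 ± 0.22), Gadd45a (-1.09 ± 0.13), Slc7a11 (-0.99 ± 0.18), Plk2 (-0.92 ± 0.10), Atf3 (-0.88 ± 0.18), Aldh1l2 (-0.84 ± 0.13), Herpud1 (-0.76 ± 0.10), Cdc20 (-0.74 ± 0.15) and Rgs16 (-0.49 ± 0.10). Rgs16 rose less in knockout (1.37) than in wild-type cells (1.85). The others fell in knockout cells, and fell less or not at all in wild-type cells. Of 17 other settings the call was kept in 4 for Ntn4, 5 for Rgs16, 8 for Cdc20 and Atf3, 9 for Trib3, 11 for Hist1h1c and 15 for Slc7a11, which lost it without treated knockout replicate 2 or 3.

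The genes called in opposite directions gave 3.44 ± 0.35 (Apod), 1.79 ± 0.12 (Ly6c1), 1.77 ± 0.24 (Ifi44), 1.17 ± 0.17 (Cyp26b1) and 0.88 ± 0.13 (Ly6e), and -2.22 ± 0.24 (Ifi27), -1.55 ± 0.25 (Ublcp1), -1.18 ± 0.15 (Gem) and -0.64 ± 0.09 (Sdpr). For Ublcp1 the untreated knockout libraries had 70.4, 41.1 and 78.5 CPM, with replicate 2 inside the treated range of 38.02, 41.6 and 37.8 CPM.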

How the results depend on the processing

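For the counts of calls within knockout cells, leaving out wild-type libraries was an alternative chosen after seeing the data. Of 2127 calls in knockout cells, 2122 were among the 2723 of the DESeq2 Wald test, 2095 among the 2111 with DESeq2 size factors, 1975 among the 2062 with at least 1 CPM in 3 libraries, 1694 among the 1718 without a filter, 1969 among the 2680 from the 6 knockout libraries alone and 1616 among the 1833 of limma on TPM. The 1.5-fold limit was passed in these cases. The interaction passed for 357 genes in the DESeq2 Wald test against 170. At least a 2-fold change was met by 647 genes, 301 higher and 346 lower, and by 111 for the interaction. Without treated knockout replicate 1, 2 or 3, 1362, 1360 or 1352 genes passed, with 744, 744 or 762 lower against 1214. Without treated knockout replicate 3 the higher count, 590 against 913, was past the limit too. Leaving out 1 knockout library gave 1352 to 1757 calls, 590 to 764 higher and 744 to 993 lower, and 118 to 214 for the interaction over all 12 libraries. Fewer libraries were fitted there, so each fit had fewer residual degrees of freedom. Without wild-type libraries in turn, 1855 to 3008 genes passed, 3008 of them (1313 higher and 1695 lower) without untreated replicate 2, the library with 4.82% mitochondrial counts.

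Same-numbered treated and untreated knockout libraries did not deviate together (r = -0.03, 0.04 and -0.04). This gave no sign of pairing by number, but it cannot show how the samples were handled. With a replicate block 1869 genes passed, 806 higher and 1063 lower, 1820 of them shared, and 143 for the interaction. Of 203 named genes that passed, 165 kept call and direction in every setting that gave them a value (11 to 13 settings for each gene), 38 lost the call in some and 0 reversed. Genes under about 1 CPM rest on few counts per library.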
